A study of Bos taurus with 28 samples.

Results

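CCDC114, CCDC28B and PKD2 are 3 genes of cilia among the 24596 bovine gene IDs counted in uterine biopsies, and all 3 passed the filter on low counts in every comparison of treatments. They were picked by name, with earlier results of these data known. CCDC114 (ENSBTAG00000030667) and CCDC28B (ENSBTAG00000015104) had been called by DESeq2 between HF and CTRL heifers, and PKD2 (ENSBTAG00000020031) was called between HF and LF heifers by the same tool here, so that its choice may have used that comparison. The names of all 3 also came from a list sorted on the LF and CTRL comparison. Their values in the comparisons that chose them are therefore given as a description with no test.

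RNA was sequenced from 1 endometrial biopsy, taken between the caruncles and cut away from the myometrium, of each of 28 nulliparous heifers. Estrus was synchronized in all of them with a progesterone device (PRID), GnRH and prostaglandin F2 alpha. The HF treatment held 10 heifers inseminated with frozen-thawed semen from bulls of high field fertility, the LF treatment 10 heifers given semen from bulls of low field fertility, and the CTRL treatment 8 heifers that were not inseminated. Each semen treatment used 5 Holstein-Friesian bulls with 2 heifers per bull, and tissue was collected 12 h after insemination, in 2 study replicates. The heifers' ages are not given in the sources used here, and the study's animal sheet lists them as cross-breds whereas the labels give a Holstein breed. In that sheet Charolais crosses made up 5 LF, 4 HF and 1 CTRL heifers and Limousin crosses 3, 4 and 4, the rest being Belgian blue, Simmental, Aberdeen angus or Saler crosses. CTRL heifers received neither semen nor the procedure of insemination, and the parts of these in any difference cannot be told apart. Total counts were 14872812 to 25633259 per heifer with a median of 19315998. Among the markers with a name, the epithelial genes KRT8 and ESRP1 and the stromal gene VIM had a count in every heifer, and so did 6 smooth muscle genes.

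A cilium is a hair-like extension of the cell built on a ring of microtubule doublets. Multiciliated cells of the uterine lining carry many motile cilia, which beat because dynein arms on the doublets pull neighbouring doublets past each other, while most other cells carry a single primary cilium that works as an antenna for signals. CCDC114, also called ODAD1, is a subunit of the docking complex that fixes the outer dynein arms to the doublets, and its loss in humans causes primary ciliary dyskinesia. CCDC28B is a coiled-coil protein that binds Bardet-Biedl syndrome proteins and mTOR complex 2 in human cells and zebrafish, where it affects the length of cilia. PKD2 encodes polycystin-2, a cation channel of the primary cilium and the endoplasmic reticulum that is mutated in human polycystic kidney disease.

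CCDC114, the gene of the motile cilium, had its highest levels in heifers given semen. Levels are in CPM, the counts of a gene as a share of the TMM-scaled library size of the heifer. In HF heifers CCDC114 had a lowest value of 16.03, a median of 27.8 and a highest value of 36.0 CPM (mean 26.2 ± 6.70, SD, n = 10). The LF heifers had a lowest value of 9.57, a median of 20.3 and a highest value of 59.6 CPM (mean 25.1 ± 15.3, SD, n = 10). The CTRL heifers had a lowest value of 9.38, a median of 16.1 and a highest value of 24.4 CPM (mean 16.04 ± 4.34, SD, n = 8). The treatments overlapped: 9 of 10 HF heifers lay above the CTRL median and 6 above every CTRL heifer, against 7 and 3 of 10 LF heifers. By medians the order was HF, LF and CTRL, and the neighbours HF and LF lay closer together than the SD of the LF heifers. The spread was widest in LF heifers, where the coefficient of variation was 60.9%, against 25.6% in HF and 27.1% in CTRL heifers, and LF3 and LF6 alone exceeded the highest HF heifer. The highest heifers, LF3, LF6 and HF7, were Charolais crosses, and so was CTRL7, the highest CTRL heifer and the 1 Charolais cross there. The lowest HF heifer, HF1, was a Charolais cross as well. Charolais crosses had 16.03 to 36.0 CPM in HF and 18.2 to 59.6 CPM in LF heifers. Limousin crosses had 18.3 to 30.8 CPM in HF, 9.57 to 18.6 CPM in LF and 12.9 to 17.6 CPM in CTRL heifers. The breed cross entered as a covariate in fits reported below, which include CCDC114 in the LF and CTRL comparison. Whether it accounts for these levels was not tested.

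CCDC28B, the Bardet-Biedl modifier, was lowest in CTRL heifers by mean and median, although the lowest single heifer was LF2. In HF heifers it had a lowest value of 33.9, a median of 55.0 and a highest value of 85.2 CPM (mean 52.04 ± 15.8, SD, n = 10). LF heifers had a lowest value of 26.01, a median of 41.0 and a highest value of 90.7 CPM (mean 45.0 ± 18.4, SD, n = 10). CTRL heifers had a lowest value of 28.5, a median of 31.1 and a highest value of 41.6 CPM (mean 32.8 ± 4.404, SD, n = 8). The CTRL median was exceeded by 10 of 10 HF and 8 of 10 LF heifers, and the highest CTRL heifer by 7 HF and 4 LF heifers. The order by medians was again HF, LF and CTRL, with HF and LF closer than their SD. CTRL heifers were the most alike, with a coefficient of variation of 13.4% against 30.5% in HF and 41.0% in LF heifers, and the highest value of all belonged to LF7.

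PKD2, the polycystin channel, had a different pattern, with its lowest levels in LF heifers. In HF heifers the lowest value was 122, the median 155 and the highest 185 CPM (mean 155 ± 18.3, SD, n = 10). In LF heifers the lowest value was 92.4, the median 124 and the highest 132 CPM (mean 119 ± 13.2, SD, n = 10). In CTRL heifers the lowest value was 112, the median 139 and the highest 347 CPM (mean 165 ± 75.9, SD, n = 8). Of the HF heifers 9 of 10 lay above every LF heifer, the exception being HF7, and 0 of 10 LF heifers lay above the CTRL median. The value of 347 CPM belonged to CTRL1, and without that heifer the CTRL mean was 139 ± 20.2 CPM (SD, n = 7), between those of LF and HF. In the order by medians, HF, CTRL and LF, neighbours lay closer than the SD of the HF or CTRL heifers.

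**Figure D1:**
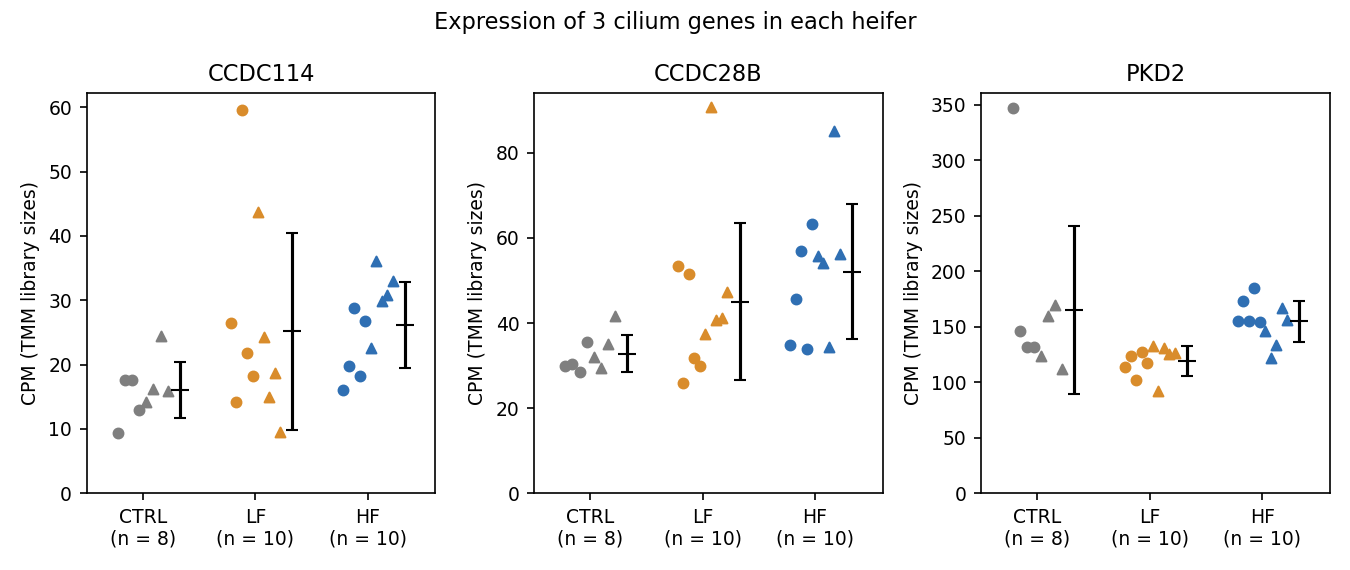
CPM of CCDC114, CCDC28B and PKD2 in each heifer by treatment, with the y axis starting at 0. Circles are heifers of study replicate 1, triangles those of study replicate 2, and the bar beside each treatment is the mean with its SD. CTRL1 stands at 347 CPM for PKD2, LF7 at 90.7 CPM for CCDC28B, and 9 of 10 HF heifers lie above every LF heifer for PKD2.

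The HF and CTRL comparison addresses the response of the endometrium to semen from HF bulls. CCDC114 had 1.63 times the CTRL level (log2FC 0.71, SE 0.18) and CCDC28B 1.59 times (log2FC 0.67, SE 0.16), while PKD2 had 0.94 times (log2FC -0.09, SE 0.17). These log2FC values come from edgeR's fit over 14885 genes, in which 0 genes passed an adjusted p of 0.05 (0%) and 2386 had an unadjusted p under 0.05 (16%). DESeq2 called 328 of 15459 genes (2.12%), 162 of them higher in HF heifers (1.05%), and these included CCDC114 and CCDC28B, by the rule that chose both. With each heifer left out in turn from the DESeq2 fit, 91 to 869 genes were called per fit. CCDC28B stayed called in 17 of 18 fits, the exception being the one without CTRL1. CCDC114 stayed called in 13 of 18, the exceptions being those without HF9, HF10, CTRL1, CTRL4 and CTRL5. These fits reuse the heifers that chose both genes. They describe how far the calls leaned on single heifers and are no test of them. The log2FC of CCDC114 ranged from 0.62 to 0.82 and that of CCDC28B from 0.56 to 0.72 in edgeR fits with a heifer left out. For PKD2 the sign rested on a single heifer, the log2FC being 0.15 without CTRL1. Within study replicates 1 and 2 the log2FC was 0.61 and 0.78 for CCDC114, 0.60 and 0.73 for CCDC28B, and -0.20 and 0.04 for PKD2.

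In the LF and CTRL comparison, on semen from LF bulls, CCDC114 had 1.57 times the CTRL level (log2FC 0.65, SE 0.30), CCDC28B 1.37 times (log2FC 0.46, SE 0.19) and PKD2 0.72 times (log2FC -0.47, SE 0.18). This comparison shares the 8 CTRL heifers with the one before. Here edgeR called 0 of 14849 genes (0%), with 839 at an unadjusted p under 0.05 (5.65%), and DESeq2 called 2 of 19179 (0.0104%), with no cilium gene of the 3 among them. Each of the 3 values leaned on a single heifer: the log2FC was 0.41 for CCDC114 without LF3, 0.29 for CCDC28B without LF7 and -0.23 for PKD2 without CTRL1. With the breed cross of the heifers as a covariate the log2FC of CCDC114 was 0.19, and those of CCDC28B and PKD2 were 0.35 and -0.42. Within study replicates 1 and 2 it was 0.96 and 0.34 for CCDC114, 0.31 and 0.61 for CCDC28B, and -0.70 and -0.20 for PKD2.

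The HF and LF comparison asks whether the fertility of the bull made a difference. It did not choose CCDC114 or CCDC28B, although it shares its HF heifers with the comparison that did, so both were tested in it. Neither differed by more than the spread between heifers. Each treatment here used 5 bulls with 2 heifers per bull, whereas the fits took heifers as the units. The intervals below therefore describe heifers rather than bulls. The log2FC was 0.05 for CCDC114 (95% confidence interval -0.50 to 0.60, adjusted p = 0.995 in edgeR over 14793 genes) and 0.20 for CCDC28B (95% confidence interval -0.22 to 0.62, adjusted p = 0.877). These intervals run from 0.71 to 1.51 times the LF level for CCDC114 and from 0.86 to 1.54 times for CCDC28B, and differences within them are not excluded by these heifers. Single heifers moved both values: for CCDC114 the log2FC was 0.28 without LF3 and -0.05 without LF10, and for CCDC28B it was 0.37 without LF7 and 0.10 without HF9. For CCDC114 the sign also differed between study replicates 1 and 2, at -0.36 and 0.44, a difference that was not tested, while CCDC28B had 0.28 and 0.14.

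PKD2 had 1.29 times the LF level in HF heifers (log2FC 0.37, SE 0.09), which is given as a description because this comparison may have chosen it. edgeR called 0 of 14793 genes (0%) here and had 1171 at an unadjusted p under 0.05 (7.92%), whereas DESeq2 called 27 of 16625 (0.162%), 13 of them higher in HF heifers (0.0782%), PKD2 included. The log2FC kept to 0.33 to 0.40 whichever heifer was left out and was 0.49 and 0.24 within study replicates 1 and 2. The DESeq2 call itself held in 13 of 20 fits with a heifer left out, and 7 to 155 genes were called per fit. It was lost without LF1, LF2, LF3, HF1, HF2, HF9 or HF10. These fits reuse the heifers that may have chosen PKD2 and are no test of it. Both named epithelial genes had the opposite sign, with a log2FC of -0.52 for KRT8, a keratin, and -0.32 for ESRP1, an epithelial splicing factor. Their summed level was 117 to 282 CPM in HF, 185 to 299 CPM in LF and 98.9 to 263 CPM in CTRL heifers, and 2 of the 12 listed epithelial markers had a name. The part of these markers in the PKD2 values was not tested.

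**Figure D2:**
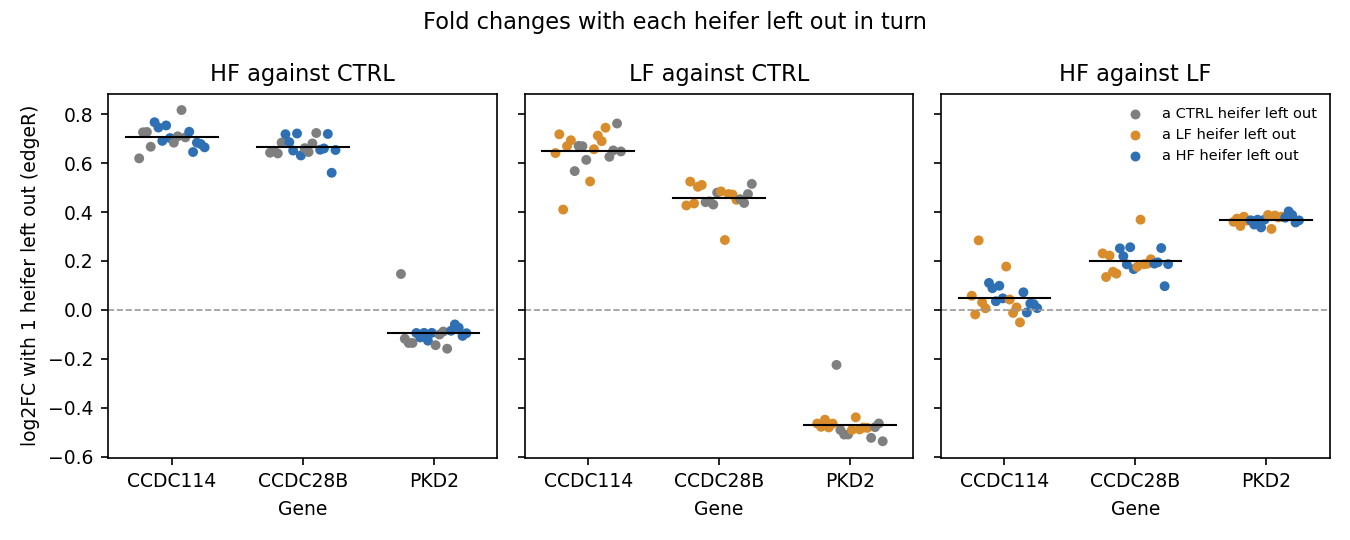
edgeR log2FC of the 3 genes in each comparison with 1 heifer left out at a time, coloured by the treatment of the heifer left out. The black line is the value with all heifers and the dashed line marks 0. A single CTRL heifer, CTRL1, moves PKD2 to 0.15 against CTRL in HF and to -0.23 in LF heifers, whereas between HF and LF all PKD2 values stay within 0.33 to 0.40.

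Other genes of the motile cilium stood above CTRL in both semen treatments, as CCDC114 did. Of 96 other motile cilium genes listed, 21 had a name among the IDs, and names lean to genes with small p-values against CTRL in LF heifers. The 21 genes were measured in the same heifers and are not independent replicates. Their mean log2 CPM per heifer was 3.75 ± 0.50 in HF, 3.78 ± 0.69 in LF and 3.27 ± 0.42 in CTRL heifers (mean ± SD), with overlapping ranges. A log2FC above 0 was found in 20 of 21 in the HF and CTRL comparison (median 0.47), against 46.4% of all genes (median -0.02). That median was 0.28 without HF7, and 0.25 with 18 of 21 above 0 in study replicate 1 against 0.74 with 20 of 21 in study replicate 2. The LF and CTRL comparison also had 20 of 21 above 0 (median 0.65), against 51.8% of all genes (median 0.01). The median there was 0.29 with the breed cross as a covariate, and 0.74 and 0.48 within study replicates 1 and 2. In both, RFX2, a transcription factor of ciliated cells, was the exception, with a log2FC of -0.44 and -0.56. CTRL1 had 106 CPM of RFX2, against 13.5 to 38.5 CPM in the other CTRL heifers. Without CTRL1, 21 of 21 lay above 0 in the HF and CTRL comparison, and 20 of 21 in the LF and CTRL comparison. Neither edgeR nor DESeq2 called any of the 21 in either comparison. Over all genes edgeR called 0% in both and DESeq2 2.12% and 0.0104%, so the lack of a call does not set the 21 apart. In edgeR, 9 and 6 of them had an unadjusted p under 0.05, 42.9% and 28.6%, beside 38.1% and 44.6% of all named genes. Between HF and LF heifers 6 of 21 had a log2FC above 0 (median -0.07), against 43.2% of all genes, and 0 had an unadjusted p under 0.05. That count ranged from 1 without LF10 to 12 without LF3, and within study replicates 1 and 2 it was 3 and 18.

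By role, EFCAB1, a second gene of the docking complex, had a log2FC of 0.72 (SE 0.33) in HF and 0.73 (SE 0.35) in LF heifers against CTRL, close to the 0.71 and 0.65 of CCDC114. DYNLRB2, a light chain of dynein, had 0.70 and 0.65, and CCDC65, of the nexin-dynein regulatory complex, 0.46 and 0.59. LRRC6, a factor for the assembly of dynein arms in the cytoplasm, had the smallest value in HF heifers among the genes above 0, at 0.28, and 0.39 in LF heifers. The radial spoke genes RSPH1, RSPH9 and RSPH14 had 0.44, 0.47 and 0.93 in HF and 0.65, 0.79 and 0.82 in LF heifers. Of the 12 named genes in the list of axoneme inner proteins and tektins, 12 lay above 0 in both comparisons. Among them CAPS had 0.47 and 0.66, and the tektin gene TEKT4 had 0.33 (SE 0.41) and 0.99 (SE 0.44). TEKT4 and RSPH14 had low levels, with CTRL means of 0.81 and 1.73 CPM. TPPP3, a tubulin polymerization protein abundant in ciliated cells, had 0.79 and 0.74. A further 81 genes were listed for the primary cilium and for partners of CCDC28B and PKD2. They include 9 of mTOR complex 2 and 13 of polycystins and polycystic disease, of which 0 had a name. Of the 81, 6 had a name, and their values did not share a direction. In HF heifers against CTRL, 4 of 6 lay above 0, from -0.26 for KIF3A, a motor of intraflagellar transport, to 0.35 for IFT22, a subunit of the transport particle. BBS7, a subunit of the BBSome, had 0.04, and the transition zone genes TCTN2, NPHP4 and AHI1 had 0.34, 0.21 and -0.15. Of the 6, 0 were called in any comparison by either tool. Over all genes edgeR called 0% in each comparison and DESeq2 at most 2.12%, so that count does not set the 6 apart.

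**Figure D3:**
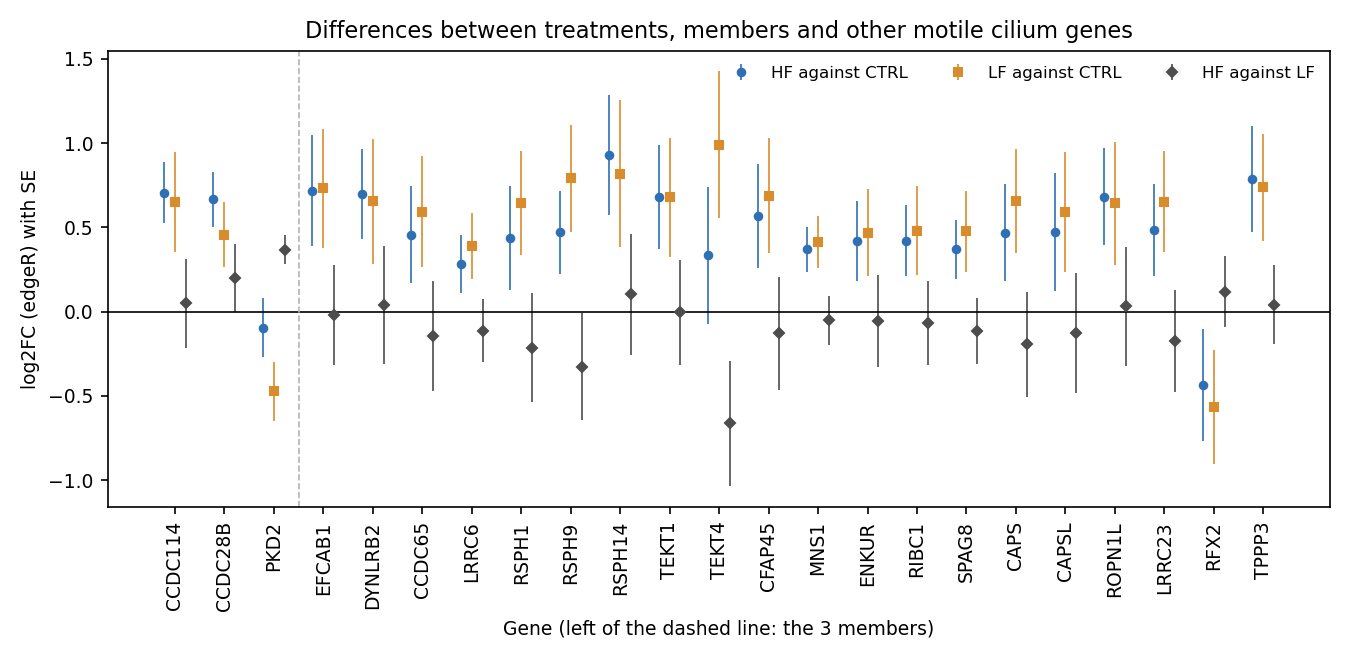
edgeR log2FC with its SE for the 3 genes, left of the dashed line, and 20 of the 21 other named motile cilium genes in the 3 comparisons. Against CTRL, 19 of the 20 shown lie above 0 in both semen treatments, with RFX2 below 0, whereas HF against LF has 5 of the 20 above it. TEKT4 lies lowest there at -0.66 (SE 0.37), at low means of 1.03 CPM in HF and 1.63 CPM in LF heifers.

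A biopsy mixes cell types, and fewer cells of a type cannot be told apart from less RNA per cell. Smooth muscle genes had the opposite direction to CCDC114. Of 12 listed, 6 had a name, and 6 of 6 had a log2FC below 0 in HF and in LF heifers against CTRL (medians -1.11 and -1.19). Over all genes 46.4% and 51.8% lay above 0. Neither tool called any of the 6, and 3 of them had an unadjusted p under 0.05 in edgeR in each of these comparisons. The summed level of the 6 was 614 to 6090 CPM in HF, 421 to 4574 CPM in LF and 813 to 8534 CPM in CTRL heifers. With the mean of these genes as a covariate, the log2FC of CCDC114 was 0.66 in HF and 0.55 in LF heifers against CTRL, that of CCDC28B 0.67 and 0.51, and that of PKD2 0.09 and -0.26. VIM, the stromal gene with a name, had a log2FC of 0.40 in HF heifers against CTRL, where DESeq2 called it, and 0.28 in LF heifers. The epithelial genes had 0.08 (KRT8) and -0.01 (ESRP1) in HF heifers against CTRL, but 0.58 and 0.30 in LF heifers against CTRL, the same sign as CCDC114, without a call by either tool, and their part in the CCDC114 values was not tested. With the mean of the 21 motile cilium genes as a covariate, added after seeing the data, the log2FC of CCDC114 was 0.43 in HF and 0.06 in LF heifers against CTRL, that of CCDC28B 0.60 and 0.31, and that of PKD2 0.17 and -0.28.

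Across heifers of the same treatment, CCDC114 followed the other motile cilium genes closely. After subtracting treatment means from log2 CPM, its correlation with the mean of the 21 genes was Pearson's r = 0.78 and Spearman's rho = 0.76 over 28 heifers (permutation p = 1e-05 for both, the smallest that 100000 resamples can give, adjusted p = 0.00015 over 15 relations). It was 0.72 in HF, 0.84 in LF and 0.73 in CTRL heifers, and 0.83 and 0.76 within study replicates 1 and 2, with adjusted permutation p-values of 0.0135 and 0.0645 for the replicates. Without the 2 heifers farthest from the median of the motile mean, LF10 and HF7, r was 0.73. Of the 21 genes 19 had an r above 0.5 with CCDC114 (median 0.71), beside a median r of -0.003 over 14217 genes. The exceptions were both genes of the multiciliated cell list, TPPP3 at 0.16 and RFX2 at -0.06. CTRL1 had the highest RFX2 level and the lowest CCDC114 level of the 28 heifers, and its part in the r of RFX2 was not tested.

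PKD2 ran the other way. Its correlation with the motile mean was r = -0.50 and rho = -0.50 (adjusted permutation p = 0.0039 and 0.0305), with -0.71 in HF, -0.59 in LF and -0.64 in CTRL heifers. It was -0.59 and -0.51 within study replicates 1 and 2 (adjusted permutation p = 0.0643 and 0.328), and -0.49 without LF10 and HF7. Leaving out any single heifer gave -0.53 to -0.46. With the 2 named epithelial genes PKD2 had r = -0.40 (adjusted permutation p = 0.215) but rho = -0.61 (adjusted permutation p = 0.0080), and r was -0.63 without CTRL1. CCDC28B had no relation to the motile mean that passed the threshold, at r = 0.30 and rho = 0.27 (adjusted permutation p = 0.295 and 0.307).

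**Figure D4:**
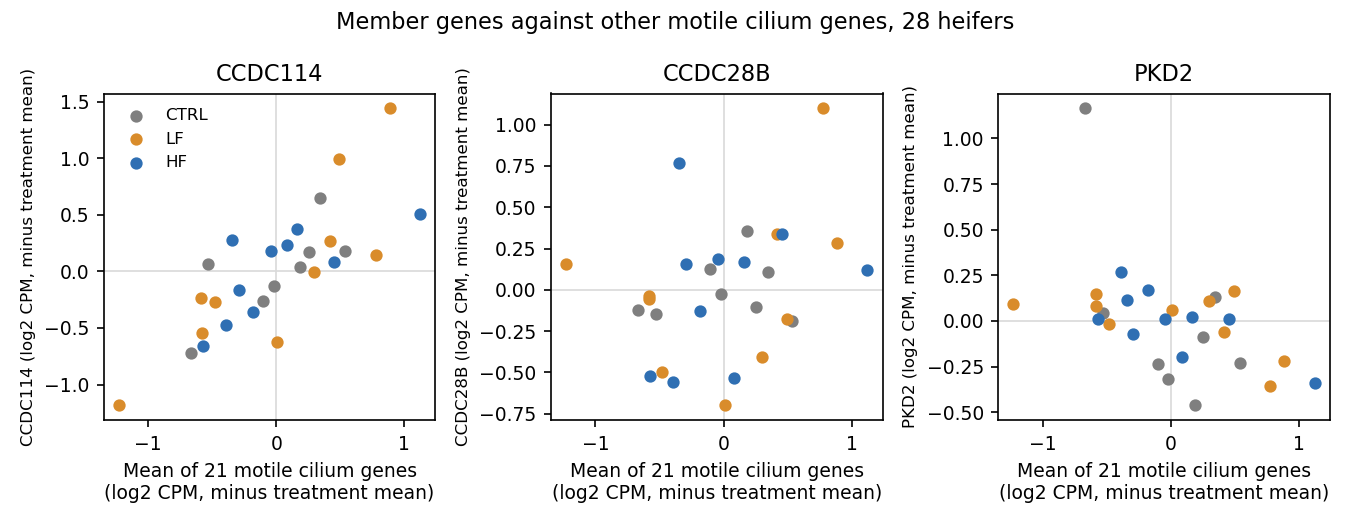
Log2 CPM of each of the 3 genes against the mean log2 CPM of 21 other motile cilium genes, both after subtracting the treatment mean, with 1 point per heifer. CCDC114 rises with the motile mean (r = 0.78), CCDC28B scatters (r = 0.30), and PKD2 declines (r = -0.50), with CTRL1 the highest point for PKD2.

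Among themselves the 3 genes had no relation over the 28 heifers that passed the threshold. The within-treatment r was 0.32 for CCDC114 and CCDC28B (rho 0.38), -0.36 for CCDC114 and PKD2 (rho -0.31) and -0.27 for CCDC28B and PKD2 (rho -0.37), with adjusted permutation p-values of 0.293, 0.120 and 0.135 for r and 0.132, 0.192 and 0.123 for rho. CCDC114 and CCDC28B had r = 0.72 within study replicate 1 (adjusted permutation p = 0.0472) and 0.02 within study replicate 2. CCDC114 and PKD2 had r = -0.50 and rho = -0.73 within study replicate 1 (adjusted permutation p = 0.053 and 0.035) and r = 0.05 and rho = 0.16 within study replicate 2, and the differences between the replicates were not tested. Without LF3 and LF10, the heifers farthest on CCDC114, its r was 0.39 with CCDC28B and -0.36 with PKD2. Without LF7 and HF9, the farthest on CCDC28B, its r with PKD2 was -0.24. Heifers of the same bull were about as far apart as heifers of different bulls. The 2 heifers of a bull were always in different study replicates, whereas heifers of different bulls were in the same or different ones. The parts of bull and study replicate in these differences therefore cannot be told apart. For CCDC114 the median difference between the 2 heifers of a bull was 0.49 in HF and 0.77 in LF on the log2 scale, against 0.41 and 0.75 between heifers of different bulls. For CCDC28B these medians were 0.68 and 0.51 within bulls against 0.52 and 0.46 between them, and for PKD2 0.15 and 0.22 against 0.17 and 0.14.

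The genes most like CCDC114 in this spread were mostly of the motile cilium. Among 1461 named genes with a mean of at least 1 CPM, the 5 with the highest r over 28 heifers included RIBC1, a protein inside the doublet microtubules (0.79), ROGDI (0.79), DYNLRB2 (0.77) and CCDC65 (0.77), of which ROGDI alone is on no motile cilium list. The 3 lowest were SLC12A4, a potassium chloride cotransporter (-0.66), SMG5, of nonsense-mediated decay (-0.66), and AFAP1L1, an actin-associated protein (-0.65). Of the 50 named genes most alike, 16 were motile cilium genes, which made up 21 of the 1461. Without LF3, the heifer farthest from its treatment mean for CCDC114, RIBC1, CCDC65 and DYNLRB2 remained among the 5 nearest at 0.76, 0.75 and 0.75.

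CCDC28B shared its pattern with a far larger set of genes. Of the 50 named genes most like it, 0 were on the motile cilium lists. Those lists held 21 of the 1461 named genes, so a count of 0 does not set CCDC28B apart. Its 5 nearest were ERGIC3, a cargo receptor between endoplasmic reticulum and Golgi (0.85), CDK5, a cyclin-dependent kinase (0.85), SVBP, a partner of the tubulin carboxypeptidase vasohibin (0.83), COX4I1, a subunit of cytochrome c oxidase (0.83), and RPS28, a ribosomal protein (0.81). Its lowest were CHD7, a chromatin remodeller, MED23, a mediator subunit, and TAF2, of the TFIID complex, all at -0.84. Over all 14217 genes, 2002 had an r above 0.6 with CCDC28B and 2781 one below -0.6, against 287 and 75 for CCDC114 and 251 and 261 for PKD2. The first axis of the spread between heifers within treatments took 38.6% of the variance of 14218 genes, and its r was 0.77 with CCDC28B, 0.27 with CCDC114 and -0.36 with PKD2. The same axis had r = 0.47 with the log2 total count of the heifers, whose part in these values was not tested. With the score on this axis as a covariate, an alternative added after seeing the data, the log2FC of CCDC28B was 0.60 in HF and 0.31 in LF heifers against CTRL. Without LF7, CDK5, SVBP and ERGIC3 remained the 3 nearest named genes, at 0.79, 0.78 and 0.77.

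The likeness of PKD2 to other genes leaned on CTRL1. Over 28 heifers its nearest were LATS2, a kinase of the Hippo pathway (0.88), MFHAS1 (0.86), FBXO33, an F-box protein (0.84), NAB1, a corepressor of EGR factors (0.82), and MAP7D1, a microtubule-associated protein (0.81), and its lowest were CEP78, a centrosomal protein (-0.80), VPS33B, of vesicle tethering (-0.76), and the folate transporter SLC46A1 (-0.76). Without CTRL1 these 5 had r = 0.74, 0.68, 0.75, 0.65 and 0.64, in that order, and MFHAS1, NAB1 and MAP7D1 ranked 46, 74 and 81 of 1461. The 5 nearest were then CORO1C, an actin-binding coronin (0.82), CACNA1H, a calcium channel subunit (0.79), TSHZ1 (0.78), SLC7A6, an amino acid transporter (0.78), and the transcription factor WT1 (0.77), genes seen only after leaving out that heifer. CEP78 kept an r of -0.75.

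The genomic span of genes had a negative relation with likeness to CCDC114 and CCDC28B and a positive one with likeness to PKD2. Over the 1377 named genes with a span in RefSeq (94.3%; assembly ARS-UCD2.0, not the ARS-UCD1.2 of the counts, and used here for names, lengths and neighbours only), Spearman's rho between the r with CCDC114 and the span was -0.37. For CCDC28B it was -0.34 over 1376 genes, and for PKD2 it was 0.43. Named genes with an r above 0.6 had a median span of 14.98 kb for CCDC114, 11.6 kb for CCDC28B and 76.6 kb for PKD2. These are relations across genes, which are not independent replicates, and the part of span in the likeness was not tested. In the same table no gene overlaps any of the 3, and their neighbours are ZNF114 and TMEM143 for CCDC114, IQCC and a pseudogene for CCDC28B, and ABCG2 and SPP1 for PKD2. The gap between CCDC114 and TMEM143 is 12 bases there, and as the treatment of strand in the counting is not stated, reads at that border cannot be told apart.

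**Figure D5:**
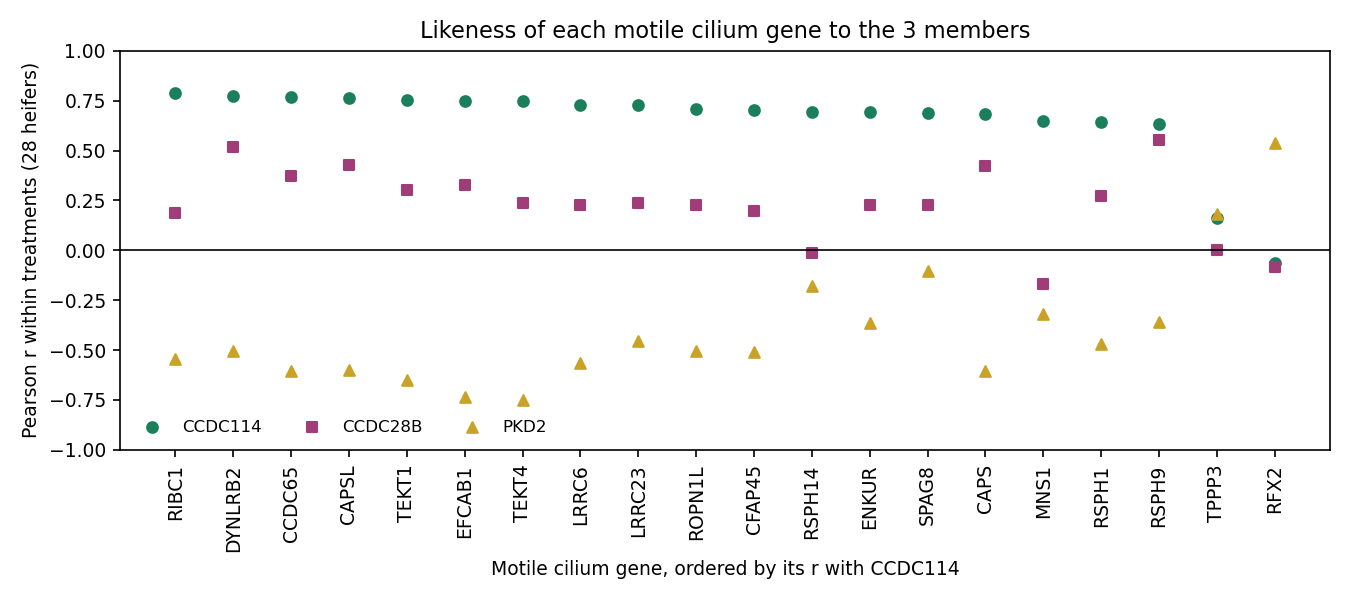
Within-treatment Pearson r over 28 heifers of 20 of the 21 motile cilium genes with CCDC114, CCDC28B and PKD2, ordered by the r with CCDC114. For CCDC114, 18 of the 20 genes shown lie above 0.5, for PKD2 most lie below 0 (median -0.51), and for CCDC28B they lie between (median 0.23). RFX2 has the highest r with PKD2 at 0.54. CTRL1 had the highest level of both RFX2 and PKD2 among the 28 heifers, and its part in this r was not tested.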

How the data were processed

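Uterine biopsies of 28 heifers were compared by treatment (HF 10, LF 10, CTRL 8). The authors trimmed reads with BBDuk, aligned them to ARS-UCD1.2 with STAR and deposited whole-number counts of uniquely mapped reads per Ensembl gene with no normalization. STAR 2.6.1b and Subread 1.6.3 are listed in the submitters' processing notes. How strand was treated in counting was not stated there or in the paper. The 3 genes and the 18 gene lists were chosen with earlier results of these data known. The count files pair no names with IDs, and the 1522 names came from the study's tables, 1510 of them from a sheet sorted on the LF and CTRL comparison.

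Counts were analysed in R 4.3.3 with edgeR 4.0.16 (TMM, filterByExpr with min.count 10, then the quasi-likelihood functions glmQLFit and glmQLFTest on the 2 treatments compared, Benjamini-Hochberg adjusted p under 0.05 over all genes), checked on simulated data. DESeq2 1.42.0 was the alternative. The SE of a log2FC is its size divided by the square root of F. Log2 CPM used a prior count of 2. Relations across heifers were tested by permuting heifers within treatments, 2-sided, with NumPy (ranks by SciPy), over 15 relations. The genes named are the 3, those of each list with the 3 highest mean CPM or a call, and for each of the 3 the 5 named genes with the highest and 3 with the lowest r, and others were named after their values were seen. An item covered by this rule is not reported here. No 2 heifers of a treatment agreed within sampling noise (chi-square per degree of freedom at least 18.4 over 118 pairs). Intervals between heifers rest on 8 to 10 animals per treatment. Other alternatives were RLE size factors, no filter, each heifer left out, study replicate, breed cross, smooth muscle mean, bulls summed, all heifers in one fit and a prior count of 0.5.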

Additional observations from a re-analysis of the deposited data

Results flagged for a closer look

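A single CTRL heifer stood far from the others for PKD2, CTRL1 at 347 CPM against 112 to 169 CPM in the other 7, and a single LF heifer for CCDC28B, LF7 at 90.7 CPM against 26.01 to 53.5 CPM in the other 9. The gap to the nearest heifer exceeded Dixon's 95% critical value for the group size in both, a limit that chance passes in about 1 in 20 groups, and 9 groups were examined. CTRL1 also had the lowest motile cilium mean of the CTRL heifers (2.61 on the log2 CPM scale) and a smooth muscle mean of 8.82, near the highest of 8.86, and LF7 had the highest score on the first axis of the spread within treatments. Over all 28 heifers within treatments PKD2 had r = -0.50 with the motile cilium mean and 0.39 with the smooth muscle mean (adjusted permutation p = 0.0039 and 0.135), and CCDC28B had r = 0.77 with the first axis. The part of these in the values of the 2 heifers was not tested.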

How the results depend on the processing

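No count of genes called by edgeR other than 0 appeared with all heifers, except 144 in HF against CTRL and 1 in HF against LF with the first axis score as a covariate. Leaving out a heifer gave 0 to 91 calls in HF against CTRL (91 without CTRL2, 3 without CTRL6) and 0 in the other comparisons. DESeq2 called 328, 2 and 27 genes in HF against CTRL, LF against CTRL and HF against LF. For PKD2 in HF against CTRL the sign turned with the breed cross (0.061), the smooth muscle mean (0.086) or the motile cilium mean (0.17) as a covariate and within study replicate 2 (0.039). Leaving out a heifer gave -0.16 to 0.15, and DESeq2 gave 0.14 without CTRL1. For CCDC114 in HF against LF it turned within study replicate 1 (-0.36), and leaving out a heifer gave -0.051 to 0.28. DESeq2 gave -0.016 without LF2, -0.0092 without LF8, -0.043 without LF10 and -0.011 without HF7. The causes were not tested. With the replicate block, which used heifer numbers that the labels do not tie to animals or days, edgeR called 0 genes in each comparison, and the log2FC in HF against CTRL was 0.63 for CCDC114, 0.50 for CCDC28B and -0.02 for PKD2. Same-numbered heifers had a correlation over 0.1 in 5 of 8 pairs there, so the numbers were not taken as pairs.

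Of the 15 relations 2 passed an adjusted p of 0.05 by Pearson's r, 0 within study replicate 2 and 3 with breed cross means also removed. The sign of r turned within study replicate 2 for PKD2 with CCDC114 (0.054), CCDC114 with smooth muscle (0.014) and with stromal genes (-0.24), and CCDC28B with smooth muscle (-0.050). It also turned for CCDC28B with epithelial genes without the 2 farthest heifers (-0.061) and with breed cross means removed (-0.0031). Names cover 21 of 96 motile cilium genes and 6 of the 81 genes listed for the primary cilium and for partners of CCDC28B and PKD2. The named genes may therefore not stand for the rest. Levels were not compared between genes because transcript lengths were not used here.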
